A study of Mus musculus with 4 samples.

Results

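The comparison set liver gene expression in mice with 16 copies of a mutant selenocysteine tRNA transgene (G37H) against that in mice with 2 copies of the same transgene (G37L). For each gene the G37L value was subtracted from the G37H value, after each column had been centred on its own median over genes. The lines are 2 of 4 mutant lines in the series, and the difference was obtained for all 9285 genes that carried a name. Each mutant was hybridised against wild-type littermates on 2-colour oligonucleotide arrays. All were males of the mixed B6/FVB strain, aged 7 to 8 weeks and given a diet sufficient in selenium, and their livers were taken after several passages of the line. The G37L column averages 4 animals and the G37H column 3. The other lines, given below only for orientation, are DTrsp, which lacks the tRNA gene Trsp in the liver, and A34, which carries 2 copies of a transgene changed from T34 to A34 (4 animals each). Whether the G37 mice kept their own Trsp is not given, nor which promoter or integration site the transgene has, so copy number and any other difference between the lines cannot be told apart. Each column is a ratio to wild type, and whether the lines shared wild-type animals is not stated. A difference between the columns can thus also hold one between the wild-type animals or the hybridisations.

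Selenocysteine tRNA reads UGA codons and delivers selenocysteine, which makes it necessary for every selenoprotein. The adenosine at position 37, beside the anticodon, normally carries an isopentenyl group. A guanosine at that position, as in the A37-to-G37 transgene, cannot carry it. Selenoproteins fall into a stress-related class, such as glutathione peroxidase 1, which is sensitive to the state of this tRNA, and a housekeeping class, such as thioredoxin reductase 1, which is less so.

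All values are log2 ratios of mutant over wild type, relative to the column median, and a difference is G37H minus G37L on that scale. A difference of 1 is 2-fold. The direction is likely and not stated, since it rests on the dyes (Cy5 mutant, Cy3 wild type), and a turned ratio would reverse every sign below. Each column is already an average over animals, so there is 1 value per gene and line. No spread between animals, interval or test can be given, and no difference below was set against biological error. Trsp itself had no named probe, so the targeted gene was not checked. Of 24 hepatocyte markers, 21 lay above the column median in each line, with medians of 0.50 in G37L and 0.45 in G37H. Ratios without intensities do not show whether a marker is present.

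Across all genes, 381 were at least 2-fold higher in G37H than in G37L (4.10%) and 247 at least 2-fold lower (2.66%). The median difference was -0.01. Of the 381 higher genes, 114 were at least 2-fold from wild type in G37L alone, 102 in G37H alone and 153 in neither line. For the 247 lower genes the numbers were 94, 54 and 88. Most genes rest on 1 probe. In the 2414 genes with 2 or more probes, the pooled SD between probes of a gene was 0.43, against an SD of 0.54 over all genes. Every probe was at least 2-fold higher in 14 of these genes (0.580%) and at least 2-fold lower in 15 (0.621%). The decimals of the averages also carry information. Among 2359 probes whose decimals show all 4 arrays in G37L and all 3 in G37H, 1.82% were at least 2-fold higher and 1.87% lower. Among 2433 probes shown to rest on fewer arrays, 5.96% and 3.74% were. The shares were largest, at 6.89% and 4.22%, among 2321 probes whose decimals show nothing in either column, beside 4.08% and 2.92% of all named probes. Values of that kind may rest on any number of arrays, 1 included.

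**Figure D1:**
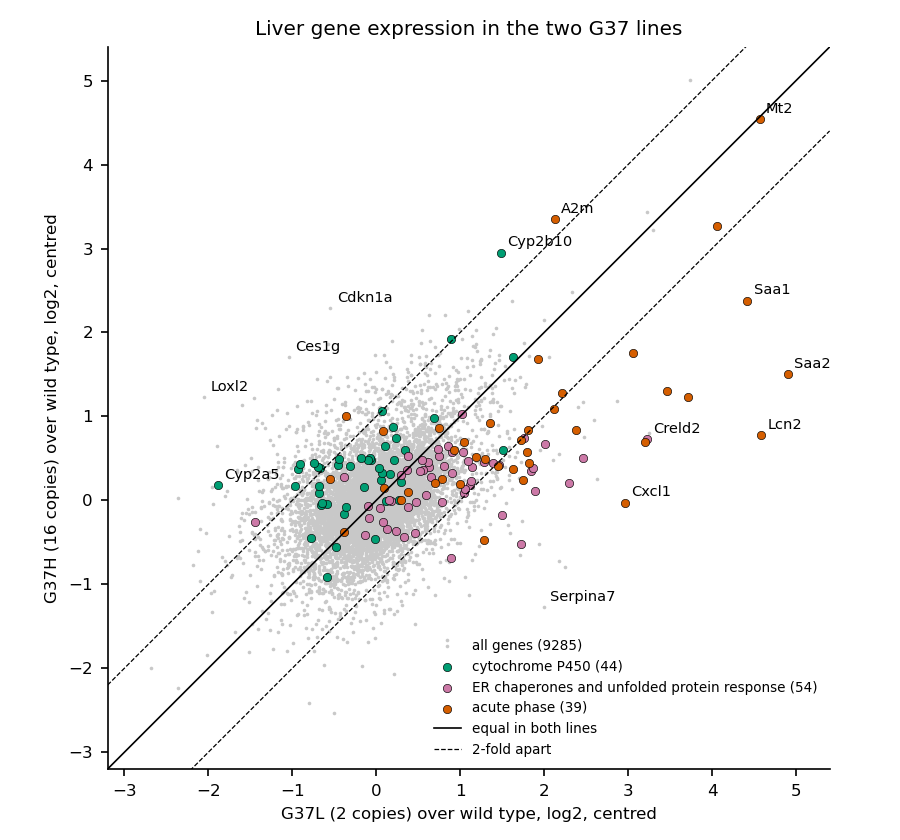
Scatter of every gene, with G37L over wild type on the horizontal axis and G37H over wild type on the vertical axis (both log2, each column centred on its median); the solid line marks equal values and the dashed lines a 2-fold difference, and 3 gene lists are coloured. Acute phase genes such as Lcn2 and Saa2 lie far below the lower dashed line, Mt2 lies on the line of equality, and Cyp2a5, Cyp2b10 and Cdkn1a lie above the upper dashed line.

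Genes of the acute phase response were lower in G37H than in G37L. The acute phase is the reaction of the liver to inflammation, in which hepatocytes, driven mainly by interleukin 6 through STAT3 and by interleukin 1 through C/EBP and NF-kappaB factors, release plasma proteins into the blood. Of 39 measured genes, 32 had a difference below 0. It was 2-fold or more in 17 of these, and 2 genes were higher by as much. Those were 43.6% and 5.13%, beside 2.66% and 4.10% of all genes. The median difference was -0.80, beside -0.01 over all genes. The list median was 1.73 in G37L and 0.70 in G37H. In G37L, 28 of the 39 were at least 2-fold above wild type (3.24% of all genes were), and in G37H 12 were (3.68% of all genes). None of the 39 was at least 2-fold below wild type in either line, beside 2.72% of all genes in G37L and 1.96% in G37H.

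Lcn2, the iron-siderophore-binding lipocalin, had the lowest difference of all 9285 genes. Its value was 4.59 in G37L and 0.78 in G37H, a difference of -3.81 or 14.0-fold. It was 0.91 in DTrsp and 0.10 in A34, so G37L stood apart from the other 3 lines. The serum amyloid A genes Saa1, Saa2 and Saa3 encode apolipoproteins of high-density lipoprotein that are strongly inducible in inflammation. Saa2 was at 4.90 in G37L and 1.51 in G37H, Saa3 at 3.72 and 1.23, and Saa1 at 4.42 and 2.38. In DTrsp the same 3 genes lay between -0.32 and 0.06, and in A34 between 0.57 and 1.22. Saa1 and Saa2 are close copies that a probe may not separate. The constitutive family member Saa4 was at 1.93 and 1.68, a difference of -0.25.

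The promoters of these genes are shown because they carry the C/EBP motif and belong to the genes with the lowest differences. The capitals mark the motif (TTGCNNAA on either strand) within bases upstream of the start, taken from RefSeq on GRCm38.p6 and written on the strand of the gene.
Lcn2: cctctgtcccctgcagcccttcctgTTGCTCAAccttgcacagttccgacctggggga
Saa1: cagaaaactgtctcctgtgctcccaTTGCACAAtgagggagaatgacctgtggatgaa
Saa2: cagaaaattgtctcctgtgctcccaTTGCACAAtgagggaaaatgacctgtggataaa
Saa3: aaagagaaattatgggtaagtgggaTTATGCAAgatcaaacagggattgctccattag
These lie at chr2:32387923-32387980 (minus strand), chr7:46743130-46743187 (minus), chr7:46751625-46751682 (plus) and chr7:46715743-46715800 (minus). Of 249 upstream bases aligned, 197 (79.1%) were identical between Saa1 and Saa2. Promoters, each 250 bases before to 50 after the start, were found for 32 of the 39 genes. The motif was present in 13 of their 35 promoters (37.1%), beside 10.8% of 32851 promoters of all genes. In the 14 promoters found for the 17 genes at least 2-fold lower it was present in 8 (57.1%), those of Fga, Fgb, Hpx, Lcn2, Orm2, Saa1, Saa2 and Saa3. Those 17 genes were picked by the difference itself, and a part of C/EBP in it was not tested. A match is a description of the letters, not a binding site.

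Cxcl1, a chemokine that attracts neutrophils and a classical NF-kappaB target, was at 2.96 in G37L and -0.03 in G37H. Its promoter is shown with the NF-kappaB motif in capitals (GGG, any 2 bases and TTTCC, or GGG, any 3 bases and TTCC, on either strand), with overlapping matches merged, at chr5:90891131-90891209 on the plus strand.
Cxcl1: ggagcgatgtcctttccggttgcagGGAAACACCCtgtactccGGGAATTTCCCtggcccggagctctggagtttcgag
This motif was found in 8 of the 35 acute phase promoters (22.9%) and in 5.56% of all promoters. The STAT motif (TTCNNNGAA) was found in 9 of the 35 (25.7%) and in 8.30% of all promoters.

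The following genes for plasma proteins of the hepatocyte were also lower in G37H than in G37L. Apcs, the serum amyloid P component and a pentraxin, was at 3.46 in G37L and 1.30 in G37H. Its relative Crp was at 1.19 and 0.52. Fgl1, a fibrinogen-like protein, was at 3.20 and 0.69, and Lrg1, a leucine-rich glycoprotein, at 2.38 and 0.83. Haptoglobin, Hp, which binds free haemoglobin, had 2 probes, at 1.61 and 1.88 in G37L and at 0.33 and 0.15 in G37H. Haemopexin, Hpx, which binds free haem, was at 1.82 and 0.44. All 3 fibrinogen chains, which form the clot, stood close together. Fga was at 1.73 in G37L and 0.72 in G37H, Fgb at 1.63 and 0.37, and Fgg at 1.80 and 0.58. The protease inhibitor Serpina3n was at 3.06 and 1.76, the orosomucoids Orm1 and Orm2 at 2.21 and 2.12 in G37L and at 1.28 and 1.09 in G37H, and the inter-alpha-inhibitor heavy chain Itih4 at 1.45 and 0.42. The averages of Lcn2, Saa3, Apcs, Lrg1 and Lbp are shown by their decimals to rest on 4 arrays in G37L and 3 in G37H.

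Some members did not share this pattern. A2m, a broad protease inhibitor, was at 2.13 in G37L and 3.35 in G37H, a difference of 1.22. In DTrsp and A34 it was at -1.53 and -0.88. Il1rn, the antagonist of the interleukin 1 receptor, was at -0.36 in G37L and 1.01 in G37H, the latter shown to rest on 2 arrays. The metallothioneins, which bind zinc and copper, were high in both lines. Mt2 was at 4.57 in G37L and 4.54 in G37H, and Mt1 at 4.06 and 3.27. They were also at 4.05 and 2.58 in DTrsp and at 1.60 and 1.41 in A34. Hamp, which encodes the iron hormone hepcidin, was at 0.08 and 0.82. Among signalling members, Stat3 had 2 probes, at 0.94 and 1.06 in G37L and at 0.18 and 0.21 in G37H. Socs3, its feedback inhibitor, was at 1.36 and 0.92, and the factor Cebpb at 0.29 and 0.00. The 3 probes of the receptor gene Il6ra disagreed in sign, with differences from -0.48 to 0.38.

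Markers of inflammatory cells are given beside this list. The 24 measured Kupffer cell and macrophage markers had medians of 0.71 in G37L and 0.51 in G37H. Their differences ran from -0.89 to 0.54 with a median of -0.11, and none reached 2-fold in either direction. Timd4 and Cd5l, markers of resident Kupffer cells, had differences of -0.89 and -0.87, Vsig4 one of 0.54. Of 18 neutrophil and monocyte markers 6 were measured, with a median difference of -0.31, or -1.73 in the 2 with probes shown to rest on all arrays, of which Lcn2 is 1. S100a8 was at 1.34 in G37L and 0.93 in G37H, and Lcn2 is also on that list. The part of these cells in the acute phase values was not tested. In whole liver, fewer cells of a type and less RNA per cell cannot be told apart.

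Other plasma protein lists did not show a low median. The 32 complement genes had medians of 0.51 in G37L and 0.48 in G37H, and none was 2-fold apart. Their median difference was -0.03, a sign that turned under 3 of the alternatives. Of 59 coagulation and protease inhibitor genes, 10 were at least 2-fold lower (16.9%) and 2 higher (3.39%), beside 2.66% and 4.10% of all genes. Without the 10 members shared with the acute phase list, 4 of 49 were lower and 1 higher, with a median difference of 0.04. Serpina7, thyroxine-binding globulin, was at -1.27 in G37H, with a difference of -3.26, and the decimals show nothing of its arrays. Serpina10, the protein Z-dependent inhibitor, was at 2.10 and 0.48, the adipokine Serpina12 at 0.46 and -1.47, and Tfpi, the tissue factor pathway inhibitor, at 1.48 and 0.14. The interferon response and antigen presentation list (47 genes) had a median difference of -0.12, with Ifi47 at -1.09 and Isg15 at -0.81.

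**Figure D2:**
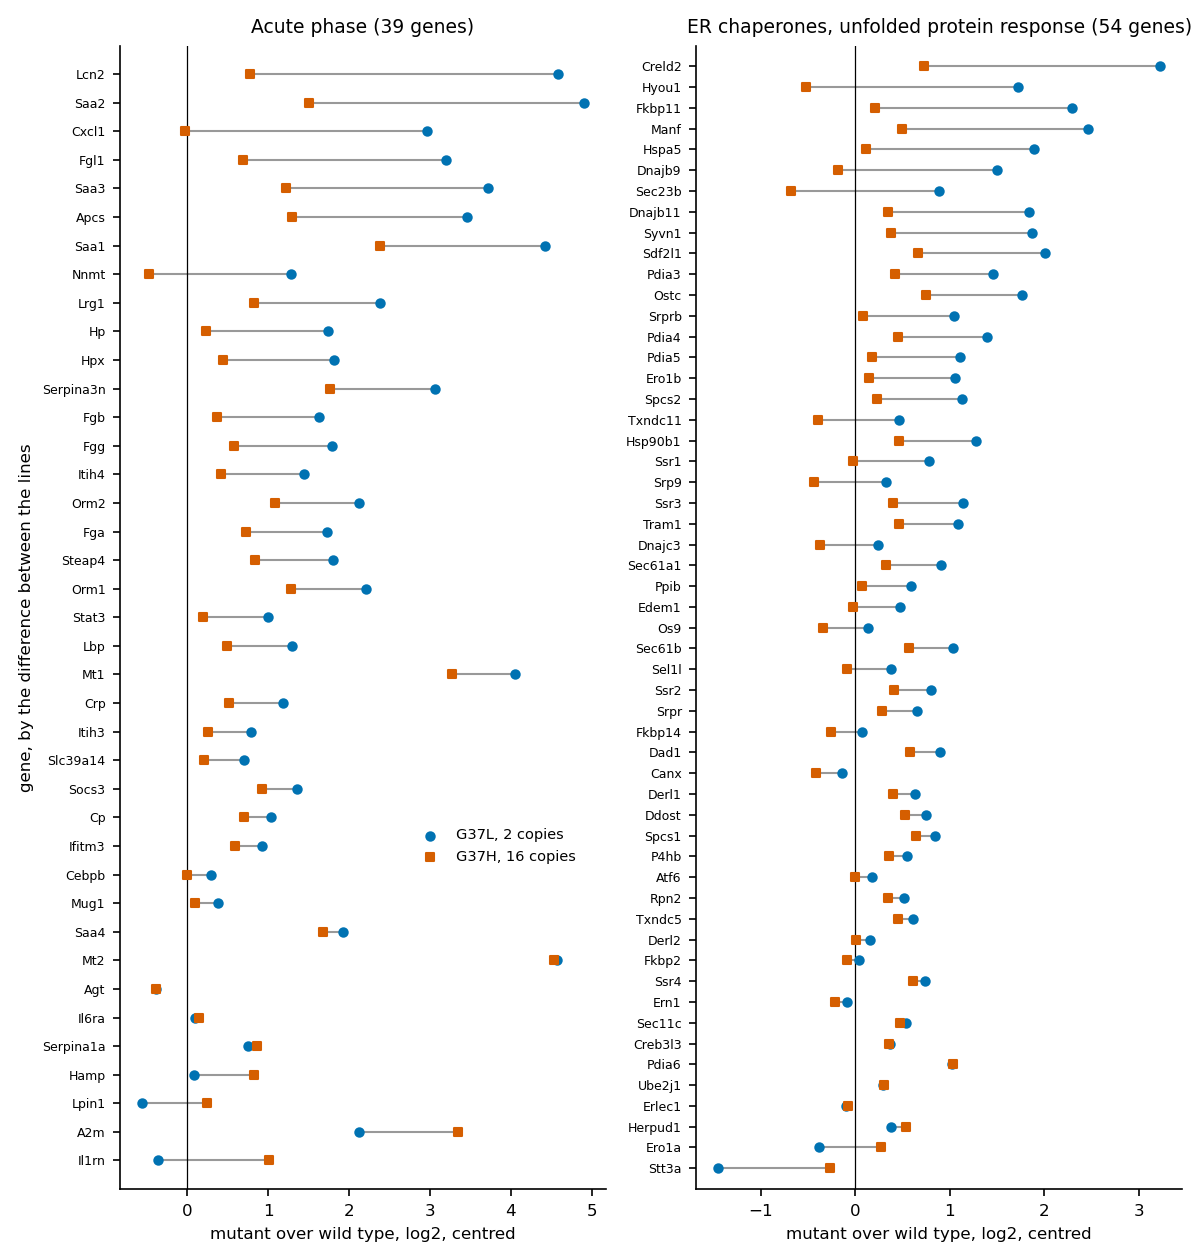
Values of each measured acute phase gene (left) and of each measured gene for endoplasmic reticulum chaperones and the unfolded protein response (right), mutant over wild type (log2, centred); circles are G37L, squares G37H, and genes are ordered by the difference. The G37H square lies to the left of the G37L circle for 32 of 39 and 48 of 54 genes.

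Genes for chaperones and secretion in the endoplasmic reticulum (ER) were also lower in G37H than in G37L. The unfolded protein response raises such genes when unfolded protein builds up in the ER, through the sensors ATF6, IRE1 and PERK. Of 54 measured genes, 48 had a difference below 0 (88.9%, beside 50.8% of all genes). It was 2-fold or more in 12 of these, and 1 gene was higher by as much. Those were 22.2% and 1.85%, beside 2.66% and 4.10% of all genes. The median difference was -0.48. In G37L the list median was 0.76 with 21 genes at least 2-fold above wild type (3.24% of all genes were). In G37H it was 0.29 with 1 such gene (3.68% of all genes). The medians were 0.19 in DTrsp and 0.12 in A34.

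Creld2, a secreted ER stress protein, was at 3.23 in G37L and 0.73 in G37H. In DTrsp and A34 it was at -0.12 and -0.35. Hyou1, an ER chaperone of the HSP110 family, was at 1.73 and -0.52, and Hspa5, the main ER chaperone BiP, at 1.89 and 0.11. The BiP co-chaperone gene Dnajb11 was at 1.84 and 0.35, and Dnajb9, another, had a difference of -1.68. Manf, a secreted ER stress factor, was at 2.47 and 0.50, Fkbp11, a prolyl isomerase, at 2.30 and 0.21, and Sdf2l1 at 2.01 and 0.67. Hyou1, Fkbp11 and Dnajb11 are shown by their decimals to rest on 4 arrays in G37L and 3 in G37H. Each of these genes was higher in G37L than in the other 3 lines.

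Among the protein disulphide isomerases, Pdia3 was at 1.46 in G37L and 0.42 in G37H and Pdia4 at 1.39 and 0.45, while Pdia6 was at 1.02 and 1.03. Of the degradation machinery, the ubiquitin ligase Syvn1 was at 1.87 and 0.38, Edem1 at 0.47 and -0.02, Sel1l at 0.38 and -0.08, and Herpud1 at 0.38 and 0.53. The translocon genes Sec61a1 and Sec61b had differences of -0.58 and -0.47, and Ssr1 to Ssr4, of the translocon-associated complex, differences from -0.80 to -0.13. Sec23b, a coat protein of vesicles that leave the ER, had 2 probes, at 0.84 and 0.94 in G37L and at -0.95 and -0.41 in G37H. The sensors stood near 0, Atf6 at 0.18 and -0.01 and Ern1, which encodes IRE1, at -0.09 and -0.21. The oxidoreductase Ero1a, at -0.39 and 0.27, and the oligosaccharyl transferase subunit Stt3a, at -1.45 and -0.26, lay higher in G37H, and the decimals of Stt3a show nothing of its arrays.

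The ER stress response element is shown because it is the motif that ATF6 binds with NF-Y. The capitals mark CCAAT and CCACG with 9 bases between them, on either strand. All are upstream bases from RefSeq on GRCm38.p6, written on the strand of the gene.
Hspa5: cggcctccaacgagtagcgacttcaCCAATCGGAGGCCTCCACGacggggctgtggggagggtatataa
Creld2: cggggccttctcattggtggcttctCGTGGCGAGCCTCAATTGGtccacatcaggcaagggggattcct
Hsp90b1: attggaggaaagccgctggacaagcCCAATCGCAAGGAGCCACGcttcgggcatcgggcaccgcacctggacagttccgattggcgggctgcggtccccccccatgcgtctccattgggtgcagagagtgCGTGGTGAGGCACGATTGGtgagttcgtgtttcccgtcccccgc
Pdia6: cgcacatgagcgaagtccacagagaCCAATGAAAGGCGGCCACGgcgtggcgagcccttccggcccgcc
They lie at chr2:34772000-34772068 (plus strand), chr15:88819495-88819563 (plus), chr10:86705508-86705681 (minus) and chr12:17266466-17266534 (plus). The element occurred in 8 of 55 promoters of the 44 list genes with one (14.5%), beside 0.119% of all promoters. The 8 genes were Canx, Creld2, Dnajc3, Ero1b, Hsp90b1, Hspa5, Pdia6 and Syvn1. Their differences ran from -2.49 in Creld2 to 0.01 in Pdia6, with a median of -0.87. The 36 genes without it had a median of -0.46 and a range from -2.09 to 1.19. Among them Dnajb11 and Herpud1 hold the related element ERSE-II (ATTGG and CCACG with 1 base between them). ERSE-II was found in 2 of the 55 promoters (3.64%) and in 0.0365% of all promoters. A part of either element in the differences was not tested. Hsp90b1, the ER form of HSP90, has the first element 2 times and was at 1.28 in G37L and 0.46 in G37H.

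Selenoproteins were measured for 19 genes and showed 1 that was at least 2-fold apart, on the lower side (5.26%). Of all genes 2.66% were lower and 4.10% higher by as much, so a list of this size holds few at those shares. Of the stress-related class 4 were measured. Gpx1, which reduces hydrogen peroxide, was at -0.84 in G37L and -0.45 in G37H, and the plasma peroxidase Gpx3 at -0.85 and -0.73. Selenow was at -1.48 in both lines, and Msrb1, a methionine sulfoxide reductase, at -0.17 and -0.58. Selenow was also at -1.18 in DTrsp and -1.54 in A34. All 4 lay below the column median in each G37 line. Their median difference was 0.06, and it was below 0 under 1 of the alternatives, at -0.05 with G37H scaled to the spread of G37L.

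Of 15 other selenoproteins, 11 had a difference below 0, with a median of -0.10. The lowest were Selenos and Selenok, both membrane proteins of the ER with a part in the removal of misfolded proteins. Selenos had 2 probes, at 0.73 and 0.50 in G37L and at -0.35 and -0.66 in G37H, a mean difference of -1.12. Selenok was at 0.72 and -0.10. Neither is on the ER chaperone list. Txnrd1, the cytosolic thioredoxin reductase, was at -0.06 and -0.20, and the mitochondrial Txnrd2 at -1.31 and -1.41. Gpx4, which protects membrane lipids, was at 0.19 and 0.25, and Selenop, the plasma selenium carrier, at 0.45 and 0.43. The deiodinase Dio1 was at -0.04 and -0.39, and the differences of Gpx2, Sephs2, Selenon, Selenof, Selenov, Dio2, Selenoi and Selenoo ran from -0.42 to 0.29.

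None of the 15 factors of selenocysteine synthesis and insertion was 2-fold apart. Of all genes 4.10% were higher and 2.66% lower by as much, so a list of this size may hold none at those shares. Pstk, the kinase that phosphorylates serine on the tRNA, was at -0.79 in G37L and 0.04 in G37H. Secisbp2, which binds the selenocysteine insertion element, was at -0.43 and 0.24, and nucleolin, Ncl, at -1.04 and -0.43. The seryl-tRNA synthetase gene Sars was at 0.29 and -0.29. Trit1, the enzyme that places the isopentenyl group on position 37, was at -0.05 and -0.33. Sephs1 was at 1.25 and 1.20, and Sepsecs at -0.18 and 0.02. The median of -0.02 had another sign under 4 of the alternatives, the mean (0.06) among them.

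Cytochrome P450 genes were higher in G37H than in G37L. These haem enzymes oxidise drugs, steroids and fatty acids, and many are under the nuclear receptors CAR and PXR. Of 44 genes on the list, which also holds receptors and electron donors, 10 were at least 2-fold higher, 0 at least 2-fold lower, and 37 lay above 0. The first 2 counts are 22.7% and 0%, beside 4.10% and 2.66% of all genes. The list median was -0.13 in G37L and 0.39 in G37H, a median difference of 0.55. It was the highest of all 33 pathway lists, but in the 31 members with 1 probe it was 0.29, below the medians of such members in the circadian (0.43), female-biased (0.38) and phase II (0.37) lists, among others.

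Nr1i3, which encodes CAR, had 3 probes, at -0.64, -0.78 and -0.60 in G37L and at 0.45, 0.29 and 0.42 in G37H. Nr1i2, which encodes PXR and was picked with its value known, stood at -0.35 and -0.08. Cyp2b10, a standard target gene of CAR, was high in both lines, at 1.45, 1.45 and 1.54 in G37L and at 2.92, 3.32 and 2.61 in G37H. It was at 0.38 in DTrsp and -1.04 in A34. Cyp2a5, a coumarin hydroxylase, was at -1.87, -1.81 and -1.99 in G37L and at 0.03, 0.17 and 0.35 in G37H. In DTrsp it was at 2.49 and in A34 at 1.14, so G37L was the only line with Cyp2a5 below 0. Cyp2c37 was at -0.96 and 0.18, Cyp2c50 at -0.74 and 0.44, and Cyp2c54 at -0.90 and 0.43. These are relatives of similar sequence, and a probe for one may read another.

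Families were also counted by symbol, a grouping chosen after the values were seen. Of 9 Cyp2c genes 7 lay above 0, with Cyp2c39 the lowest at -0.91. All 5 Cyp3a genes lay above 0, from 0.32 in Cyp3a25 to 1.30 in Cyp3a44. The 4 Cyp2j genes had a median of -0.01.

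Enzymes of phase II, which conjugate and export oxidised compounds, were more often higher than lower. Of 77 genes on the list of phase II enzymes and targets of NRF2, the antioxidant response factor, 10 were at least 2-fold higher, 3 at least 2-fold lower and 56 above 0. The median was -0.19 in G37L and 0.12 in G37H, beside 0.78 in DTrsp. The carboxylesterases, which cleave esters and triglyceride, held the largest differences. Ces1g was at -1.04 in G37L and 1.71 in G37H and at 2.73 in DTrsp, and Ces1d at -1.89 and 0.64. The glutathione transferases of the alpha class, which conjugate electrophiles, stood close together. Gsta1 was at -1.20 in G37L and 0.36 in G37H, Gsta2 at -0.99 and 0.42, and Gsta4 at -0.46 and 0.90, all shown to rest on 4 and 3 arrays. The differences of all 4 measured Gsta genes ran from 1.21 to 1.55, while the 7 Gstm genes, of the mu class, had a median of 0.13 with none 2-fold apart. Gstt3 was at -1.10 and 0.50, and Mgst3, a microsomal enzyme, at -1.13 and 0.20.

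Gstp3 and Osgin1 were chosen after their values were seen. Gstp3 had the highest value of all genes in G37H, at 5.01, after 3.74 in G37L, where it is shown to rest on 3 arrays. On the lower side of the list were Ugt2b38, a glucuronosyltransferase, at 2.87 and 1.19, the growth inhibitor Osgin1 at 0.77 and -0.55, and the sulfiredoxin Srxn1 at 0.69 and -0.33. The antioxidant list of 26 genes had 0 higher (0%) and 1 lower (3.85%, Srxn1), beside 4.10% and 2.66% of all genes. Its median of -0.10 changed sign under 2 of the alternatives, and Gclc, the catalytic subunit for glutathione synthesis, was at -0.49 and 0.20, beside 2.30 in DTrsp.

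**Figure D3:**
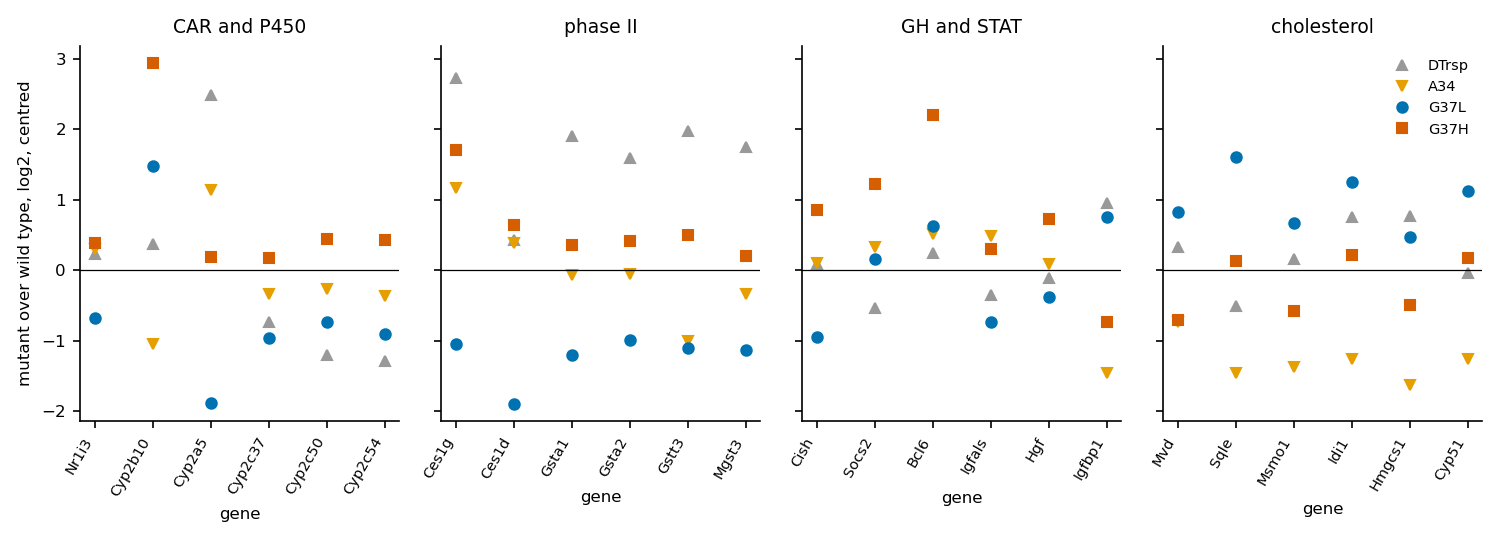
Values over wild type (log2, centred) of 24 genes in the 4 lines, in panels for the receptor CAR with P450 genes, phase II enzymes, growth hormone and STAT signalling, and cholesterol synthesis. In the phase II panel G37L lies below 0 and G37H above 0 for each of the 6 genes, and in the cholesterol panel G37L lies above G37H for each.

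Genes of fatty acid oxidation under PPAR alpha, the receptor for fatty acids in the fasted liver, were 5 higher and 0 lower of 50, with a median difference of 0.23. Those counts are 10% and 0%, beside 4.10% and 2.66% of all genes. The omega-hydroxylase Cyp4a10 had 2 probes, at -0.58 and -0.63 in G37L and at 1.06 and 1.04 in G37H. The acyl-CoA thioesterases Acot1 and Acot4 were at -0.13 and -1.51 in G37L and at 1.39 and 0.32 in G37H. The fatty aldehyde dehydrogenase Aldh3a2 was at -1.34 and -0.07, and the peroxisomal thiolase Acaa1b at -0.88 and 0.16.

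Cholesterol synthesis pointed the other way. Of 22 genes under SREBP2, the sterol-sensing factor, 4 were at least 2-fold lower, 0 higher and 16 below 0. The first 2 counts are 18.2% and 0%, beside 2.66% and 4.10% of all genes. The median was 0.39 in G37L and -0.01 in G37H. The median difference was -0.35, and -0.12 in the 10 genes with probes shown to rest on all arrays. Squalene epoxidase, Sqle, had 2 probes, at 1.52 and 1.71 in G37L and at 0.26 and 0.02 in G37H. Mvd was at 0.83 and -0.71, Msmo1 at 0.67 and -0.58, Idi1 at 1.25 and 0.22, Hmgcs1 at 0.47 and -0.49, and Cyp51 at 1.12 and 0.18. In A34 these 6 genes lay between -1.63 and -0.73, below G37L in each case. In fatty acid and triglyceride synthesis, with 38 genes, none was 2-fold apart, beside 4.10% of all genes higher and 2.66% lower. Apoa4, an apolipoprotein that follows the fed and fasted state, had the lowest difference of the lipoprotein list (-2.03), with 2 probes at -0.53 and -0.47 in G37L and at -2.36 and -2.70 in G37H.

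Growth hormone and JAK-STAT signalling had no common direction. Of its 34 genes, 5 were higher (14.7%) and 1 lower (2.94%), beside 4.10% and 2.66% of all genes. Its median was -0.07, with another sign under 2 of the alternatives, the mean (0.03) among them. The higher genes include the feedback inhibitors of STAT5. Cish was at -0.95 in G37L and 0.85 in G37H, shown to rest on 4 and 3 arrays, and Socs2 at 0.16 and 1.23. The repressor Bcl6 was at 0.63 and 2.21, and Igfals, which stabilises IGF1 in plasma, at -0.73 and 0.31. Igfbp1, an insulin-repressed IGF-binding protein, was at 0.76 and -0.74. The STAT motif was found in 7 of 44 promoters of the list (15.9%), those of Bcl6, Cish, Igfals, Nr0b2 and Socs3. One of the starts of Bcl6 is shown with the motif in capitals, at chr16:23981338-23981476 on the minus strand.
Bcl6: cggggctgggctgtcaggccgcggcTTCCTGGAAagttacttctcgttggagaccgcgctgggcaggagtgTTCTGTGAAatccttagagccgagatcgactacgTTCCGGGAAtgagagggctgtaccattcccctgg

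Genes biased by sex in the liver, which follow the pattern of growth hormone, are given because all animals were male. The female-biased list, with 22 genes measured, had 7 past 2-fold on the higher side and 1 on the lower, and a median difference of 0.47. Those counts are 31.8% and 4.55%, beside 4.10% and 2.66% of all genes. Acot4, Cyp4a10, Ntrk2, Cyp3a44, Fmo1, Fabp5 and Cyp2a4 were the higher ones, and of the 22 genes 4 are also on the P450 list and 4 on the PPAR alpha list, Acot4 and Cyp4a10 among the latter. Nnmt was the lower one, at 1.28 and -0.47. Of 32 male-biased genes 6 were higher (18.8%) and 2 lower (6.25%), with a median of 0.04. Obp2a was at -0.58 in G37L and 1.86 in G37H, and the urinary protein gene Mup2, picked with its value known, at 0.79 and 0.90.

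Stress and cell cycle genes outside the ER included the largest difference among genes with 2 or more probes. Cdkn1a, the p53 target p21 that arrests the cell cycle, was at -0.42 and -0.67 in G37L and at 2.02 and 2.56 in G37H. In DTrsp and A34 it was at -0.03 and 0.09, so of the 4 lines only G37H was past 2-fold. Ppp1r15a, the phosphatase subunit GADD34, was at -0.87 and 0.89, and the stress factor Atf5 at 0.85 and -1.66. The list of 23 integrated stress response and p53 genes had 2 higher and 1 lower and a median of -0.19. Those counts are 8.70% and 4.35%, beside 4.10% and 2.66% of all genes. Cytosolic and mitochondrial heat shock genes (43) had 33 below 0 and a median of -0.30, with Hsp90aa1 at 1.58 in G37L and 0.53 in G37H. Of 41 proteasome genes 33 lay below 0, with a median of -0.28 and none 2-fold apart. Ribosomal protein genes had a median of -0.14 and reference housekeeping genes one of -0.20. Oxidative phosphorylation genes had one of 0.03, with 41 of 73 above 0. Together these abundant transcripts, 154 genes, had a median of -0.07. Centring on those transcripts moved the median of all genes by 0.05.

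In bile acid synthesis and transport 25 of 31 genes lay above 0, with a median difference of 0.26, or 0.17 among probes shown to rest on all arrays. Akr1d1, the reductase of bile acid precursors, was at -1.62 in G37L and -0.38 in G37H, the sterol exporter Abcg8 at -1.27 and -0.22, and the receptor Nr0b2, or SHP, which represses bile acid synthesis, at -0.33 and -1.16. Of 29 clock genes and outputs 2 were higher (6.90%) and 1 lower (3.45%), beside 4.10% and 2.66% of all genes. The lipid transporter Mfsd2a was at -2.03 and -0.38, and the clock output factor Dbp at 0.10 and -1.30. Amino acid metabolism had a median of 0.17, or 0.09 among probes shown to rest on all arrays, with proline dehydrogenase, Prodh, at -1.16 and 0.00.

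Cytokine and NF-kappaB target genes stood on both sides, with 5 higher (12.2%) and 3 lower (7.32%) of 41. Of all genes 4.10% were higher and 2.66% lower. The adhesion molecule Vcam1 was at -1.04 in G37L and 0.88 in G37H, the chemokine Ccl24 at -0.22 and 1.06, and the growth-promoting factor gene Myc at 1.10 and 2.26. The early response gene Egr1 was at 1.36 and -0.28. The decimals of these 4 show nothing of their arrays. In glucose metabolism 2 of 38 genes were higher (5.26%) and 3 lower (7.89%), beside 4.10% and 2.66% of all genes. Lactate dehydrogenase, Ldha, was at 1.16 and 0.15, and the kinase Pdk1, which holds back pyruvate oxidation, at -1.37 and -0.09. Slc30a10, a manganese exporter, was at -0.59 and 0.79.

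Of the markers of other liver cells, none of 22 for endothelium and none of 7 for bile duct cells was 2-fold apart. The 24 stellate cell and fibroblast markers had a median difference of 0.16, with 3 higher (12.5%) and 1 lower (4.17%). Lrat, the retinol acyltransferase of stellate cells, was at -1.40 and 0.11, and the matrix proteoglycan Lum at 0.16 and -1.29, while Loxl2 is also on that list. Of 8 lymphocyte markers 2 were higher (25%), the T cell genes Cd2, at -0.09 and 1.05, and Cd3e, at -0.83 and 0.26. Of the 8 differences, 6 lay above 0 and 2 below. The T cell gene Cd8b1 was lower in G37H. Its 2 probes were at 1.38 and -0.33 in G37L and at 0.15 and -0.39 in G37H. The part of these cell types in the other results was not tested.

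**Figure D4:**
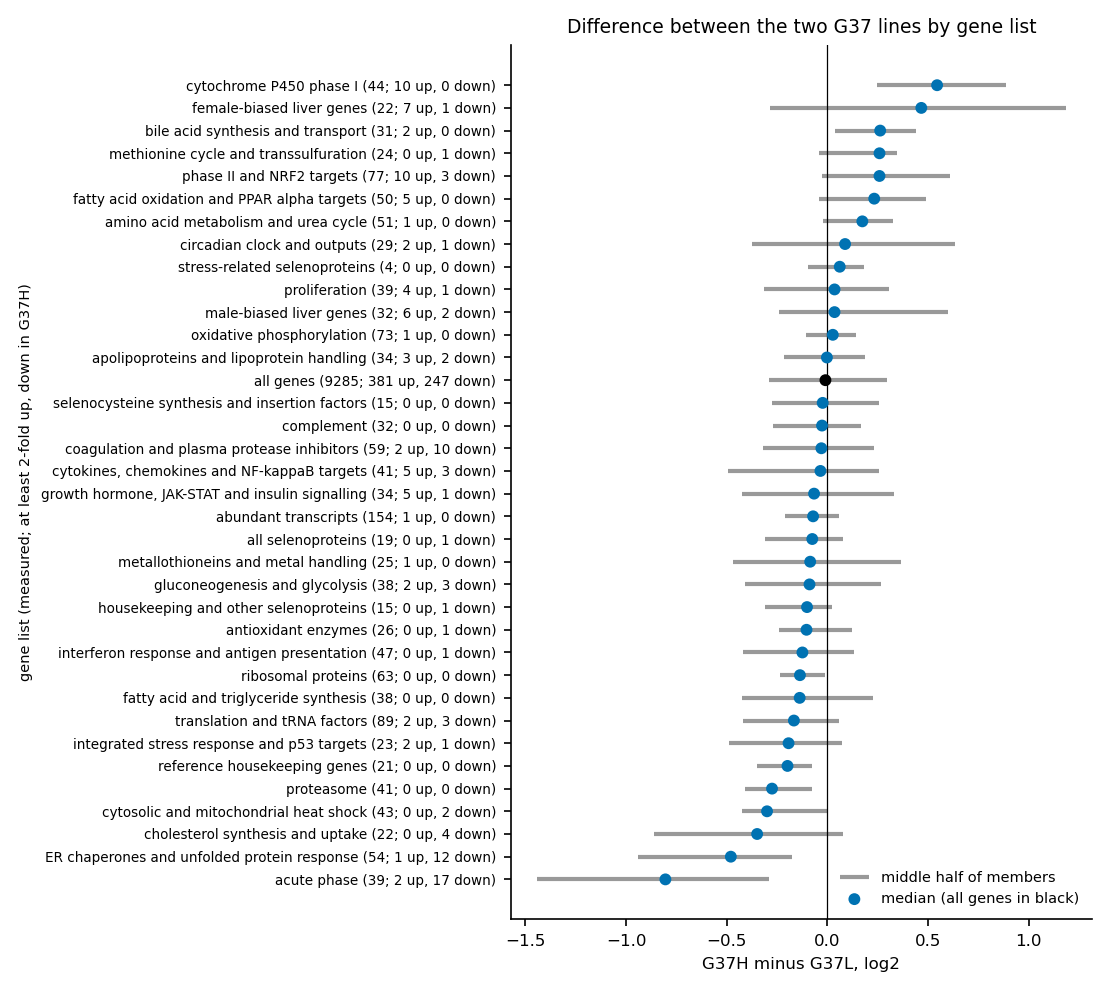
Median (point) and interquartile range (bar) of the difference G37H minus G37L (log2) for each pathway list, for all genes (black), for all selenoproteins and for the abundant transcripts; labels give the number measured and the numbers at least 2-fold up and down in G37H. The acute phase list lies lowest, at -0.80, and the cytochrome P450 list highest, at 0.55.

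The largest single differences rest on few probes. Of the 15 highest and 15 lowest genes, 28 rest on 1 probe, and the decimals of 10 of these show nothing of the arrays behind them. Apart from genes named above, the lowest were Tifa, an adaptor of NF-kappaB signalling, at 2.25 in G37L and -0.80 in G37H, the magnesium transporter Slc41a2 at 2.18 and -0.72, the co-chaperone Dnajc12 at 1.94 and -0.51, the receptor kinase Alk at 3.25 and 0.80, and Fndc9 at 2.63 and 0.26. Coq8b, of coenzyme Q synthesis, was at 1.72 and -0.65, and B4galnt1, of ganglioside synthesis, at 0.21 and -2.07. The highest was Loxl2, a collagen cross-linking oxidase, at -2.05 and 1.23. The others were Zfp959 at -1.59 and 1.14, Rnf186 at -1.46 and 1.22, the tRNA nuclease Elac1 at -1.17 and 1.33, Znhit3 at -1.42 and 0.96, Ikzf5 at -1.43 and 0.86, Irf5 at -1.36 and 0.92, the nuclease Mus81 at -1.24 and 1.02, the demethylase Kdm3a at -1.18 and 1.07, and Mad1l1 at -1.32 and 0.87.

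Genes past 2-fold at every probe overlap with the groups above. The 14 higher ones were Cdkn1a, Dct, Cyp2a5, Cyp4a10, Cyp2b10, Elmo1, Mgst3, Lats2, Aldh3a2, Dynlt1b, Cyp2c50, Cyp2c37, Nr1i3 and Cyp2d13. Dct, a melanin synthesis enzyme, was at -2.36 and 0.02, and the Hippo pathway kinase Lats2 at -0.76 and 0.55. The 15 lower ones were Apoa4, Sec23b, Hp, Sqle, Srm, Hsd17b11, Fgg, Trim2, Lrrc59, Selenos, Qsox1, Slc30a5, Glyctk, Ufl1 and Ddx6. Lrrc59, a ribosome-binding ER membrane protein, was at 1.11 and -0.02, the sulfhydryl oxidase Qsox1 at 1.25 and 0.14, Slc30a5, a zinc transporter of the early secretory pathway, at 0.61 and -0.51, and Ufl1, the ligase of the UFM1 modifier, at 0.12 and -0.94. Srm, spermidine synthase, was at 0.92 and -0.46.

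**Figure D5:**
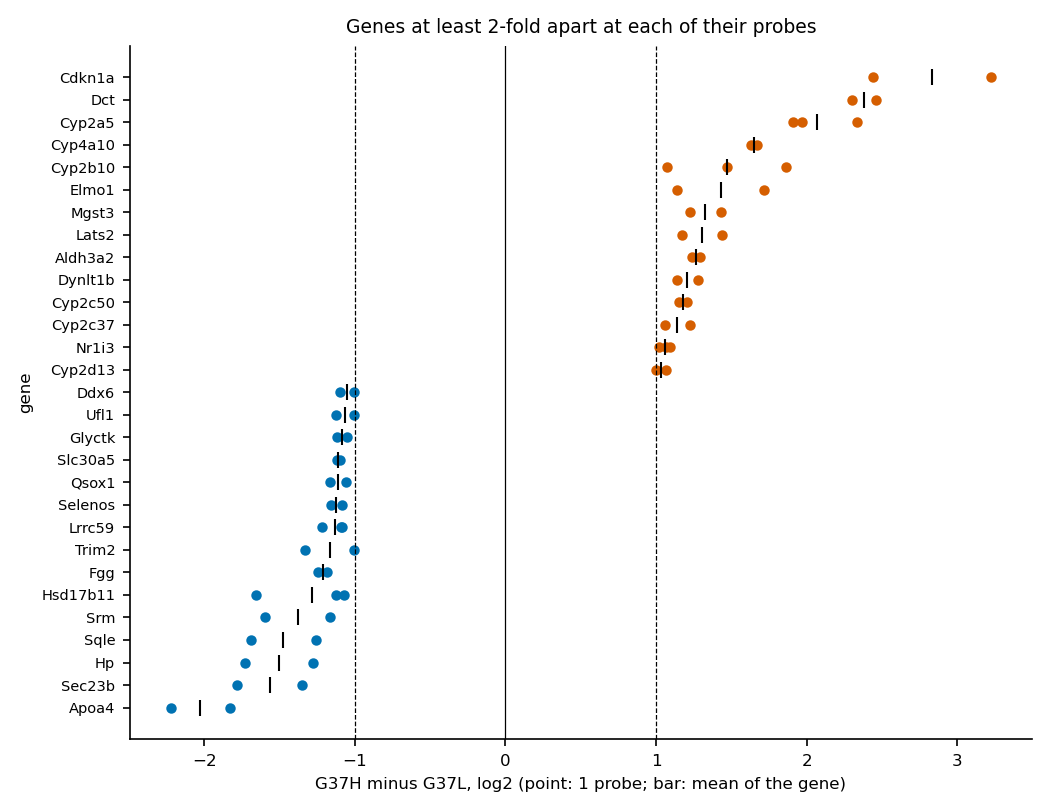
Difference G37H minus G37L (log2) at each probe (points) and its mean (bar) for the 29 genes with 2 or more probes that were at least 2-fold apart at every one; dashed lines mark 2-fold. The probes of Cdkn1a lie between 2.44 and 3.23 and those of Apoa4 between -2.22 and -1.83.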

How the data were processed

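The series holds 4 comparisons of mutant with wild-type mouse liver on 2-colour arrays, and the columns for G37L and G37H were compared here. Per the labels, 15 µg of Trizol-extracted total RNA was copied from oligo-dT and coupled to Cy3 (wild type) or Cy5 (mutant), with 1 biological replicate per array. The authors deposited 1 log2 ratio per probe and comparison, averaged over animals. Log2 is an assumption, since the base of the logarithm, the array normalization, the background correction, dye swaps and any sharing of wild-type animals are not stated in these sources.

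Of 15478 probes, 12984 were named through the gene identifier and the mouse gene table of GRCm38.p6, 63 kept the annotation's symbol, 110 were annotated with several genes, and 2321 were not listed. Probes of a gene were averaged, and each column was centred on its median over genes, -0.11 in both lines. A gene was counted at a difference of at least 1 (2-fold). No filter on low values was possible without intensities. No test was run, as each group is 1 averaged column, and no paired analysis applies. An average over 3 or 4 arrays leaves a remainder in the last decimal, which shows the number of arrays behind some values.

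The text names the 15 highest and 15 lowest genes, the 15 highest and lowest among genes with every probe at least 2-fold apart, all measured selenoproteins and selenocysteine factors, any acute phase or ER list gene, and up to 8 genes of each other list with the largest differences. The members and the 42 gene lists were chosen with earlier results of these data known. Alternatives changed the centring, scale, probe averaging, probes used, threshold and log base. The scripts ran in Python 3.11.15 with pandas 2.3.3 and numpy 2.4.6, and were tested on simulated data.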

Additional observations from a re-analysis of the deposited data

Results flagged for a closer look

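A gene is listed here where the lines lay on opposite sides of wild type, each by at least 2-fold, among the genes named in the report. The difference between the lines was not tested, since each line has 1 averaged value. Serpina7 had a difference of -3.26, above wild type in G37L and below it in G37H. The other 7 genes were below wild type in G37L and above it in G37H. Their differences were 3.28 in Loxl2, 2.75 in Ces1g, 2.73 in Zfp959, 2.68 in Rnf186, 2.50 in Elac1, 2.26 in Mus81 and 2.25 in Kdm3a. Each rests on 1 probe. The decimals show nothing of the arrays behind either average in Serpina7, Loxl2, Mus81 and Kdm3a, 2 arrays in G37H in Zfp959, and 3 of 4 arrays in G37L in Elac1.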

How the results depend on the processing

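No paired analysis was possible because the columns are averages over animals and carry no replicate numbers, and no animal could be left out in turn. The counts of 381 higher and 247 lower genes became 1089 and 902 at 1.5-fold, 72 and 51 at 3-fold, 825 and 635 with values read as natural logs, 14 and 15 where every probe of genes with 2 or more probes had to pass, and 37 and 40 among 2082 genes whose probes are shown to rest on all arrays, an alternative chosen after seeing the data. The last 2 test fewer genes, as do 2 of the probe choices that follow. Under the other centring, scaling and probe choices the counts ran from 300 to 438 and from 205 to 284. The lowest, 300 and 205, were of 7956 genes (3.77% and 2.58%) without probes shown to rest on fewer arrays. Genes with 1 probe gave 327 and 226 of 6871 (4.76% and 3.29%), beside 4.10% and 2.66% of 9285 in the main setting. The median difference ran from -0.94 to -0.75 for acute phase genes and from -0.64 to -0.43 for ER genes. Of 42 lists, 27 kept their sign under every alternative that gave a value and 15 did not. The 15 highest and 15 lowest genes were picked by this same difference, and 28 of these 30 have 1 probe. The alternatives could therefore hardly move them. All 180 values given for them stayed past 2-fold in the same direction, which is no support for the differences. Only 4 of the 30 have a probe shown to rest on all arrays. Signal over background was not used here, so dim probes could not be set apart, and the number of arrays limits the precision.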
